A study of Mus musculus with 10 samples.

Results

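The 10 genes described here encode neuronal regulators of RNA: Raver2, the neuronal Elavl genes Elavl2, Elavl3 and Elavl4, Nova1 and Nova2, Rbfox1, Rbfox2 and Rbfox3, and Srrm4. They were taken by their Ensembl IDs from 55414 gene IDs counted in trigeminal ganglia, which hold the sensory neurons of the face, of E13.5 mouse embryos. The values of both genotypes were in view, with Raver2 and Elavl4 set against the other 8. Because they were chosen by their knockout and wild-type counts, the difference between the genotypes is given for them as a description and not as a test. All 10 passed the filter on low counts, as did 18005 genes in all.

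The series measured what the constitutive loss of Prdm12 changes in the ganglion. The product of Prdm12 is a PRDM-family transcriptional regulator with zinc fingers, which nociceptors, the pain-sensing neurons, need in order to form. One group was Prdm12-/- (knockout 16, 29, 42, 49 and 50) and the other Prdm12+/+ (wild-type 22, 24, 32, 35 and 45), with 5 libraries each, all of strain C57Bl6. All 10 libraries, controls included, also bear the label Sox10 Venus+. Sox10 is a transcription factor of neural crest cells and glia. The labels name the dissection of the ganglion but no sorting of cells, do not say which bases the mutant allele lacks, and leave unsaid whether any libraries share an embryo. The p-values therefore measure only the spread between these samples, which may be technical. Sample titles start with a different letter in each genotype, and whatever that letter marks cannot be told apart from genotype.

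RNA-binding proteins of these families decide which exons a neuron keeps and how long its messages last. Nova and Rbfox proteins bind short motifs in and around exons and raise or lower their inclusion according to where they bind. Srrm4 switches on neuronal microexons, neuronal Elavl proteins bind AU-rich and U-rich stretches and stabilise messages, and the raver proteins assist PTB, a repressor of exons.

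Total counts were 3258008 in knockout 49, 13603690 in knockout 29 and 27308327 to 33556002 in the other 8 libraries. Levels are CPM, a gene's count relative to its library's TMM-adjusted total, as mean ± SD with n = 5 unless another n is given, and values by library follow the order 16, 29, 42, 49, 50 for the knockout and 22, 24, 32, 35, 45 for the wild type. Prdm12 itself stood at 8.74, 42.7, 10.1, 12.2 and 17.0 CPM in knockout libraries against 148, 178, 246, 264 and 74.3 CPM in wild-type libraries. The ganglion's own markers were present throughout: summed levels of 12 neuron markers spanned 6835 to 16829 CPM in knockout libraries and 8778 to 16384 CPM in wild-type libraries, and 0 of the 12 were called. Of 10 nociceptor markers, 6, Prdm12 among them, were lower in knockout libraries by edgeR's quasi-likelihood test (adjusted p below 0.05), and their sum was 681 to 945 CPM against 1490 to 3907 CPM. Wild-type 32 and 35 had the highest nociceptor sums (3907 and 3623 CPM) and the lowest sums of 8 mesenchyme markers (707 and 988 CPM), knockout 29 the highest sum of 7 glia markers (5070 CPM, against 1343 to 2518 CPM elsewhere), and knockout 49 the highest sum of 6 epithelial markers (261 CPM, against 9.80 to 80.0 CPM). Of 8 mechanoreceptor markers 3 were called, Ntrk2 higher and Ret and Mafa lower, and the list summed to 795 to 1170 CPM in knockout libraries and 569 to 864 CPM in wild-type libraries. The 6 endothelium markers, of which 0 were called, summed to 335 to 853 CPM and 176 to 411 CPM. In every knockout library the sum of 4 autonomic neuron markers (24.01 to 121 CPM) exceeded that of every wild-type library (0.567 to 23.4 CPM).

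Of the 10 regulators 2, Raver2 and Elavl4, had all 5 knockout libraries below all 5 wild-type libraries, and the groups of the other 8 overlapped. Raver2 was 2.90-fold and Elavl4 2.09-fold lower in the fit over all genes. Among all 18005 genes tested, 4.21% had groups that did not overlap, 2.92% lower and 1.29% higher in knockout libraries. The edgeR test called Raver2 alone, 1 of the 10, where 0.467% of all genes were called and 0.372% were called lower. DESeq2 called Elavl4 as well as Raver2, where it called 3.54% of all genes. Since the genes were chosen with this contrast in view, nothing is read from those shares. The log2 fold change (knockout over wild type) was below 0 for 7 of the 10 and above 0 for 3, with a median of -0.29 against -0.03 over all genes tested.

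**Figure D1:**
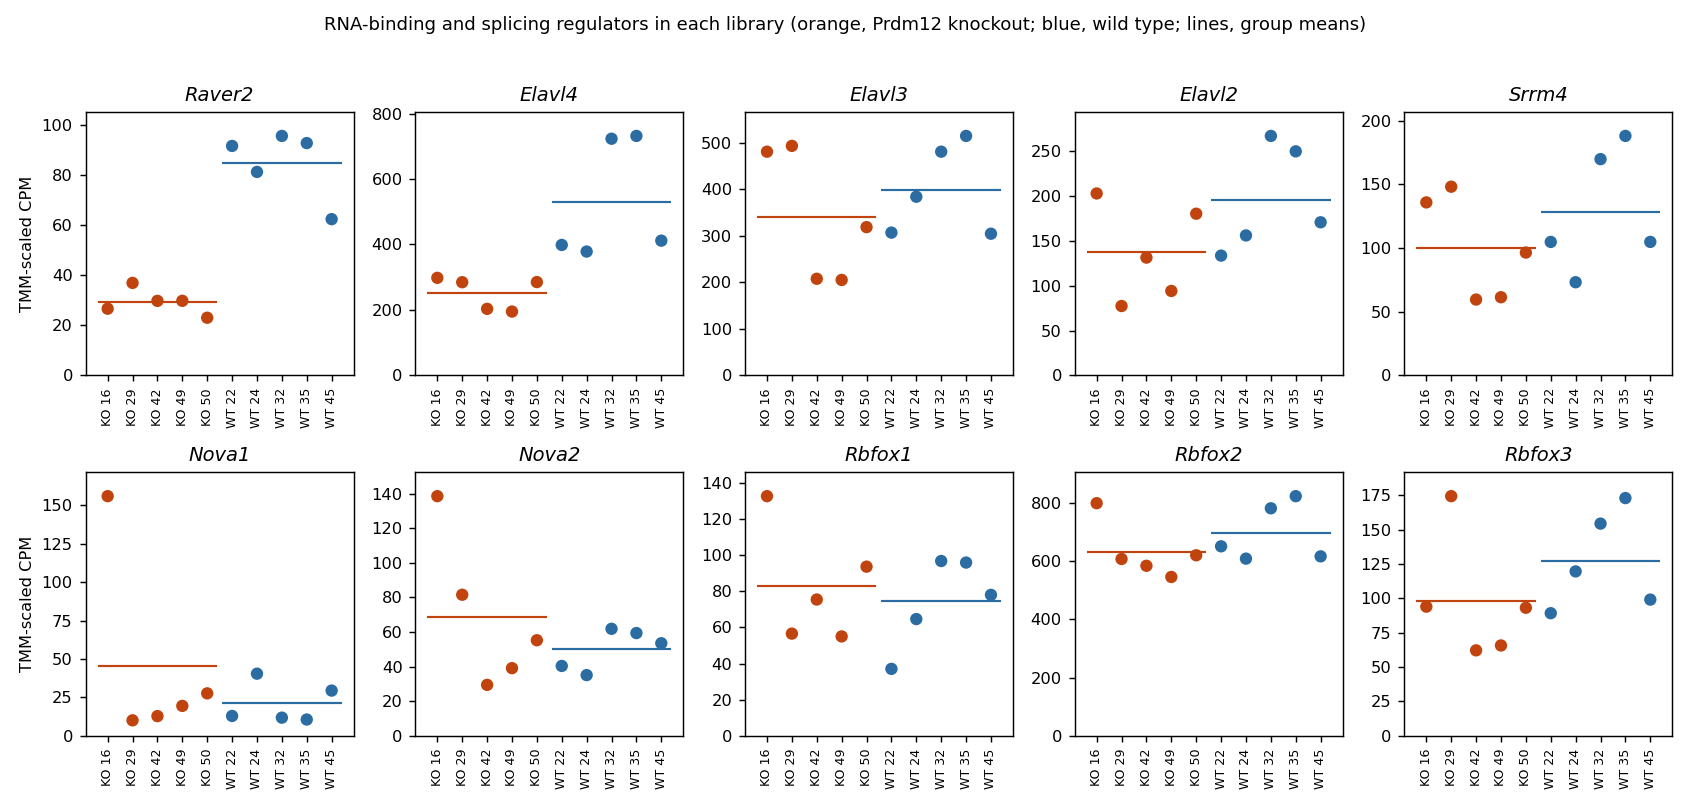
TMM-scaled CPM (vertical axes, linear from 0, a scale for each gene) of the 10 regulators in the 5 knockout (KO, orange) and 5 wild-type (WT, blue) libraries, with lines at the group means. Only for Raver2 (23.1 to 37.0 against 62.5 to 95.7 CPM) and Elavl4 (195 to 298 against 378 to 732 CPM) do the groups not overlap, and the Nova1 knockout mean is set by knockout 16.

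The sequences before the annotated starts of the genes that differ, and of Elavl3 as the relative whose groups overlapped, are shown to place the genes and to compare their base composition. They are the 250 bases before a RefSeq start (build GRCm38.p6), written 5′ to 3′ on the strand of the gene, with capitals for any match to CAGCTG (an E-box), TGTGGT (a Runx core), TAATTA (a homeodomain core) or TATAAA (the TATA box) on either strand. No motif overlapped another in the windows printed. RefSeq windows were found for 9 of the 10 genes. The Raver2 window is at chr4:101068788-101069037 on the plus strand, and that of Elavl3 at chr9:22052024-22052273 on the minus strand. Elavl4 has 4 windows, of which the first, at chr4:110351912-110352161, and the second, at chr4:110287528-110287777, are shown, both on the minus strand.
Raver2: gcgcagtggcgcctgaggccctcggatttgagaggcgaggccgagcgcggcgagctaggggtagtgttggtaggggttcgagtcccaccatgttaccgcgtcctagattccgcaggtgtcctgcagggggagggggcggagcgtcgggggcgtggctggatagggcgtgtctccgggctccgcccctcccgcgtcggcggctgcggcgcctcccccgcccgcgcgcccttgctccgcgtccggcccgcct
Elavl4 first start: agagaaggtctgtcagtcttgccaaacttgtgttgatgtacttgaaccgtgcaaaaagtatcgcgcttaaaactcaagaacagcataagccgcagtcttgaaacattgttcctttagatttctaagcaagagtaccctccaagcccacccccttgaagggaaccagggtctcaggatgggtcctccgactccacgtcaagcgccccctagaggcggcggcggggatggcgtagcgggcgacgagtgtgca
Elavl4 second start: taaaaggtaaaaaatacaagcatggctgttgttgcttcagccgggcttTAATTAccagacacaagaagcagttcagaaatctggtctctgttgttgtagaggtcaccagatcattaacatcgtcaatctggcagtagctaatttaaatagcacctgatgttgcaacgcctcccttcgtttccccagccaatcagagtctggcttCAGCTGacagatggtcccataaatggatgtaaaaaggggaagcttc
Elavl3: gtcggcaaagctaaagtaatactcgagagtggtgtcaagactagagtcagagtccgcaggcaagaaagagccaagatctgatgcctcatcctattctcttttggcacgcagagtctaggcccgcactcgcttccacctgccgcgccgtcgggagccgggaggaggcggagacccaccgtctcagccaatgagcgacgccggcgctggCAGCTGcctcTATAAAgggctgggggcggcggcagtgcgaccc

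The Raver2 window was 74.0% G and C with 33 CG pairs, against medians of 52.4% and 6 over 32851 windows, and it held none of the 4 motifs. The first Elavl4 window (53.6%, 14 CG pairs) held none of them, and the second (44.0%, 4 CG pairs) held 1 CAGCTG and 1 TAATTA. In the Elavl3 window (61.6%, 20 CG pairs) 1 CAGCTG and 1 TATAAA were found. Of all windows 13% held CAGCTG, 14% TGTGGT, 4.84% TAATTA and 12.4% TATAAA. A match is a run of letters and not a bound site, and counts per gene do not tell which start was used.

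Raver2 (ENSMUSG00000035275, chromosome 4, plus strand) encodes a nuclear protein with RNA recognition motifs that binds the PTB splicing repressor. It stood at 26.7, 37.0, 29.8, 29.8 and 23.1 CPM in knockout libraries and at 91.7, 81.3, 95.7, 92.9 and 62.5 CPM in wild-type libraries. The highest knockout library, 29, lay well under the lowest wild-type library, 45. Means were 29.3 ± 5.13 and 84.8 ± 13.6 CPM, and the log2 fold change was -1.54 (SE 0.16). Raver2 counts ran from 103 in the shallow knockout 49 to 2763. The spread within each genotype was small, with a coefficient of variation of 17.5% in knockout libraries and 16.1% in wild-type libraries. Rbfox2 was the only other regulator under 20% in both genotypes (15.5% and 14.3%). In these bulk libraries, fewer cells that make Raver2 and less Raver2 RNA in each cell cannot be told apart.

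Raver2 was low in the libraries where the nociceptor markers were low. Within the wild type, libraries 32 and 35 were highest on both, and 22, 24 and 45 ranked differently. Wild-type nociceptor sums were 1932, 1490, 3907, 3623 and 2070 CPM, beside Raver2 at 91.7, 81.3, 95.7, 92.9 and 62.5 CPM. The part of nociceptor, mechanoreceptor, endothelial or autonomic RNA in the differences of Raver2 and Elavl4 was not tested. Relative to the 12 neuron markers (mean log2 CPM of the list, in the same library), Raver2 stood at -4.46, -4.46, -3.86, -3.73 and -4.71 log2 units in knockout libraries and at -2.47, -3.04, -3.26, -3.36 and -3.15 in wild-type libraries. The groups did not overlap on this scale either, and the difference of -1.19 amounts to 2.27-fold. With the neuron marker level as a covariate in the fit, the Raver2 log2 fold change was -1.45, and without wild-type 32 and 35 it was -1.38.

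Jak1, which shares 4 exonic bases with Raver2 on the opposite strand, stood at 249 ± 61.6 CPM in knockout libraries and 254 ± 53.2 CPM in wild-type libraries, with a log2 fold change of -0.03 (SE 0.20). Raver1, the close relative of Raver2, shares 99.7% of its exonic bases with a readthrough gene, Gm38431. Reads there were hardly counted to either gene (Gm38431 had 0.516 and 0.584 CPM), so Raver1 was not measured and no ratio of Raver2 to Raver1 is given.

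The neuronal Elavl proteins, also called Hu proteins, differ little in the motifs they bind but differ in when and where they are made. Elavl4, known as HuD, is like its relatives an early marker of postmitotic neurons. The Elavl4 gene (ENSMUSG00000028546, chromosome 4, minus strand) stood at 298, 285, 203, 195 and 285 CPM in knockout libraries and at 399, 378, 723, 732 and 412 CPM in wild-type libraries. The highest knockout library, 16, lay under the lowest wild-type library, 24, and wild-type 32 and 35 were far above the other 3 wild-type libraries. Means were 253 ± 49.7 and 529 ± 182 CPM, with a log2 fold change of -1.06 (SE 0.24). Wild-type 32 and 35 had the highest nociceptor sums too. Without those libraries the log2 fold change of Elavl4 was -0.59, and with the neuron marker level as a covariate it was -0.72.

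Elavl3 (HuC, ENSMUSG00000003410, chromosome 9) stood at 481, 493, 208, 205 and 319 CPM in knockout libraries and at 307, 384, 481, 515 and 305 CPM in wild-type libraries. Knockout 16 and 29 were as high as wild-type 32 and 35, so the groups overlapped widely (341 ± 141 and 398 ± 97.1 CPM, log2 fold change -0.22, SE 0.28). Elavl2 (HuB, ENSMUSG00000008489, chromosome 4) ranged from 77.3 CPM in knockout 29 to 203 CPM in knockout 16 and from 133 to 267 CPM in wild-type libraries, and its log2 fold change was -0.51 (SE 0.29). Elavl4 thus had a larger fold change than either relative, and the test of that difference was not made because the contrast chose the genes.

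Within each library, the ratio of Elavl4 to Elavl3 removes differences in the total of neuronal RNA that both genes share. It was -0.69, -0.79, -0.03, -0.07 and -0.16 log2 units in knockout libraries and 0.38, -0.02, 0.59, 0.51 and 0.43 in wild-type libraries. The groups were only narrowly apart: knockout 42 at -0.03 lay just under wild-type 24 at -0.02. The mean ratio was -0.35 ± 0.36 in knockout libraries and 0.38 ± 0.24 in wild-type libraries. The ratio of Elavl4 to Elavl2 overlapped between the genotypes (0.56 to 1.88 against 1.27 to 1.58), with knockout 29, where Elavl2 was low, at the top.

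Against the neuron markers, Elavl4 stood at -0.98, -1.51, -1.09, -1.02 and -1.08 log2 units in knockout libraries and at -0.35, -0.83, -0.35, -0.39 and -0.43 in wild-type libraries. The 4 knockout libraries other than 29 lay between -1.09 and -0.98, and the 4 wild-type libraries other than 24 between -0.43 and -0.35. Wild-type 32 and 35, the libraries with the highest Elavl4 in CPM, did not stand out on this scale. The difference of -0.67 log2 units is 1.59-fold, against 0.06 for Elavl3, -0.09 for Rbfox3 and -0.02 for Srrm4, whose groups overlapped. Of the 10 ratios of single regulators to the neuron markers, those of Raver2 and Elavl4 alone did not overlap between the genotypes. The share of all genes that are apart on this scale was not computed. Since both genes were chosen with this contrast in view, nothing is read from that count.

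**Figure D2:**
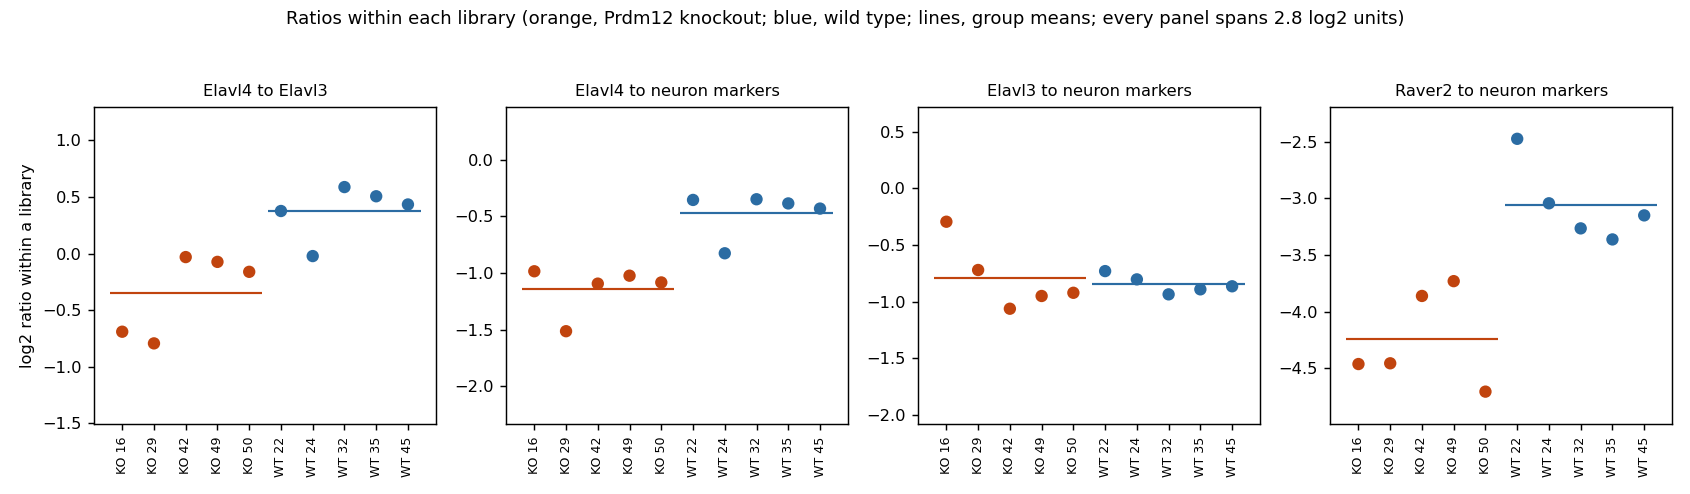
Log2 ratios within each library of Elavl4 to Elavl3 and of Elavl4, Elavl3 and Raver2 to the mean level of 12 neuron markers, with lines at the means of knockout (KO, orange) and wild type (WT, blue). Every panel spans the same number of log2 units; the ratio of Elavl3 to the neuron markers overlaps (-1.06 to -0.29 against -0.94 to -0.73), and the other panels do not.

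Divided by the length of each gene's exons, which allows levels to be set against each other, the 3 neuronal Elavl genes together were led by Elavl4 in wild-type libraries. Elavl4 made up 54.2 ± 3.35% of their summed CPM per kb in wild-type libraries (48.5% to 56.8%) and 42.5 ± 4.07% in knockout libraries (37.0% to 46.8%). Elavl3 made up 32.7 ± 3.48% and 42.6 ± 7.33%, and Elavl2 13.1 ± 1.01% and 14.9 ± 4.75%. The Elavl4 shares of the groups did not overlap, and those of Elavl2 did. Among the 3 Rbfox genes, Rbfox2 held 69.3 ± 4.50% in wild-type libraries and 68.9 ± 4.09% in knockout libraries.

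Nova1 and Nova2 encode KH-domain proteins that bind YCAY motifs and are best known from the central nervous system. Nova1 (ENSMUSG00000021047, chromosome 12) had the largest spread of all 10 genes. It stood at 156, 9.99, 12.7, 19.4 and 27.6 CPM in knockout libraries and at 12.8, 40.4, 11.7, 10.5 and 29.4 CPM in wild-type libraries. Knockout 16 was far above every other library, the next being wild-type 24, and the remaining 9 libraries overlapped. The log2 fold change was 1.12 (SE 0.74) with knockout 16 and -0.27 without it, when the knockout mean was 17.4 ± 7.83 CPM (n = 4).

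The libraries with high Nova1 also had high markers of the central nervous system. The 10 markers of that list summed to 136, 25.2, 2.24, 19.4 and 22.9 CPM in knockout libraries and to 12.2, 45.1, 0.970, 0.376 and 26.3 CPM in wild-type libraries. Knockout 16 was highest and wild-type 24 next for both, while wild-type 32 and 35 were lowest in the marker sum and among the lowest in Nova1. Knockout 29 went the other way, with the lowest Nova1 of all libraries beside a marker sum of 25.2 CPM. Of the 10 markers, 7 passed the filter on low counts and 0 were called. Pax2, Lhx1, Olig1, Olig2 and En1 were each at 0 in at least 1 library. With this marker level as a covariate, an alternative chosen after seeing the data, the Nova1 log2 fold change was 0.15.

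**Figure D3:**
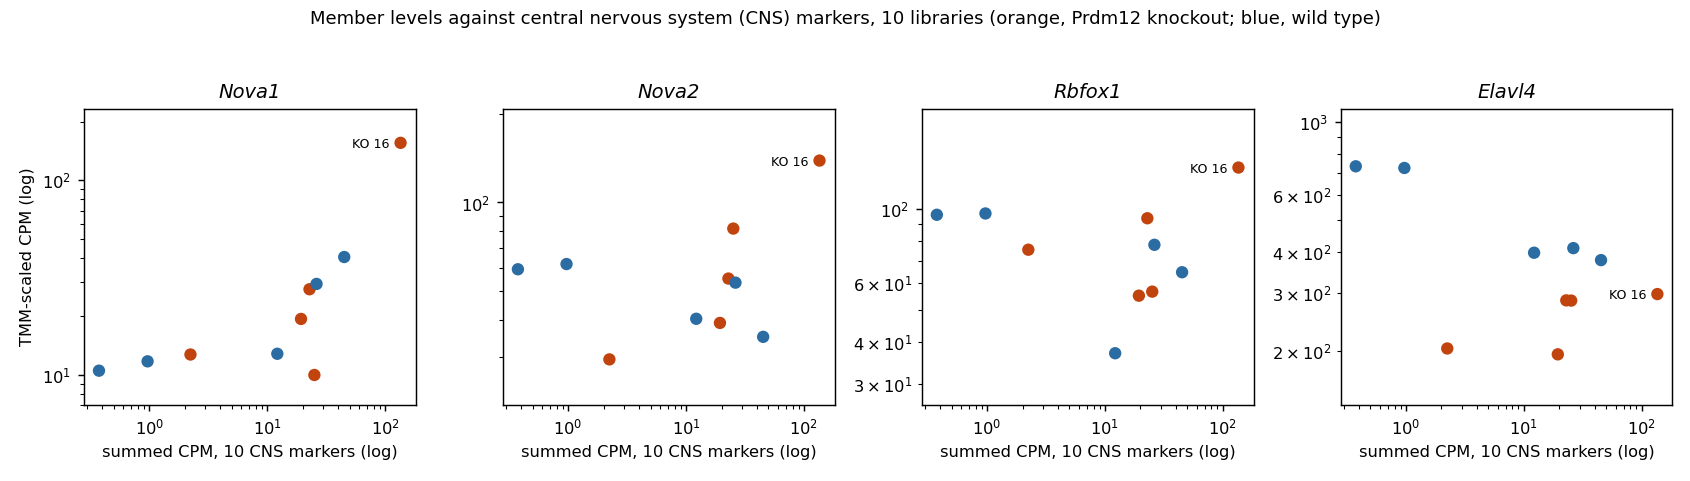
TMM-scaled CPM of Nova1, Nova2, Rbfox1 and Elavl4 (vertical log axes) against the summed CPM of 10 central nervous system (CNS) markers (horizontal log axis) in the 5 knockout (orange) and 5 wild-type (blue) libraries. Knockout 16 (KO 16) has the highest marker sum, 136 CPM, and the highest Nova1, Nova2 and Rbfox1, and the Elavl4 values of the genotypes do not overlap.

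Nova2 (ENSMUSG00000030411, chromosome 7) was likewise highest in knockout 16, at 139 CPM, followed by knockout 29 at 81.6 CPM. The other 3 knockout libraries ranged from 29.4 to 55.2 CPM and the wild type from 35.1 to 61.9 CPM, so the groups overlapped. Its log2 fold change was 0.47 (SE 0.37), and 0.04 without knockout 16. Reads of Nova2 and of Gm26821, a gene on the opposite strand over 31.7% of its exonic bases, cannot be told apart if the counting ignored strand. Nova1 made up 51.8% of the summed Nova CPM per kb in knockout 16 and 52.4% in wild-type 24, and 10.5% to 34.4% in the other 8 libraries.

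The Rbfox proteins bind GCAUG motifs. Rbfox3 is the neuronal nuclear antigen NeuN, and Rbfox2 is made in many tissues beside neurons. Rbfox2 (ENSMUSG00000033565, chromosome 15) was the steadiest of the 10, at 546 to 799 CPM in knockout libraries and 609 to 824 CPM in wild-type libraries (632 ± 98.1 and 696 ± 99.5 CPM, log2 fold change -0.14, SE 0.16). Rbfox1 (ENSMUSG00000008658, chromosome 16) ranged from 55.0 to 133 CPM and from 37.0 to 96.8 CPM, again with knockout 16 highest. The log2 fold change of Rbfox1 was 0.16 (SE 0.30), and -0.08 without knockout 16.

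Rbfox3 (ENSMUSG00000025576, chromosome 11) stood at 94.01, 175, 62.2, 65.7 and 93.2 CPM in knockout libraries and at 89.2, 120, 155, 173 and 99.1 CPM in wild-type libraries. Knockout 29 reached the level of the highest wild-type library, 35, while the other 4 knockout libraries lay near or under the lowest wild-type library, 22. Without knockout 29 the knockout mean was 78.8 ± 17.2 CPM (n = 4), against 97.9 ± 45.3 CPM with it and 127 ± 35.8 CPM in wild-type libraries. The same library had the highest sum of neuron markers, 16829 CPM, and relative to these markers the Rbfox3 difference between the genotypes was -0.09 log2 units. Over the wild-type libraries the ratio of Rbfox3 to the neuron markers varied by 0.04 log2 units (SD), less than that of any of the other 9 genes. Over the knockout libraries the SD of this ratio was 0.22, and that of Elavl4 to the same markers was 0.21.

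Srrm4 (nSR100, ENSMUSG00000063919, chromosome 5) is an SR-related protein needed for the inclusion of microexons in neurons. It stood at 136, 148, 59.6, 61.4 and 96.4 CPM in knockout libraries and at 105, 73.2, 170, 188 and 105 CPM in wild-type libraries. Knockout 42 and 49 were the lowest and wild-type 32 and 35 the highest, with the rest mixed, and the log2 fold change was -0.35 (SE 0.32). Wild-type 24 was low in Srrm4 for its neuronal RNA, at -3.19 log2 units relative to the neuron markers against -2.86 to -2.12 in the other 9 libraries.

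**Figure D4:**
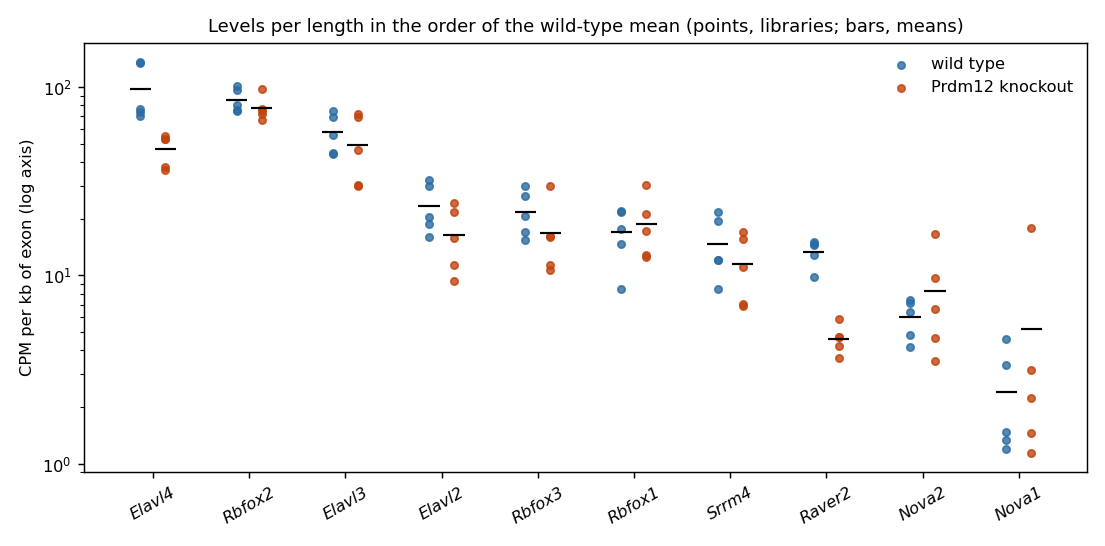
CPM per kb of exon (log axis) of the 10 regulators, ordered by their wild-type mean, with a point for each wild-type (blue) or knockout (orange) library and bars at the means of 5. The points of the genotypes do not overlap for Raver2 (13.4 against 4.62 in knockout libraries) and Elavl4 (98.1 against 47.0), and the Nova1 knockout mean (5.16) is lifted by knockout 16.

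Per kb of exon, the wild-type order was Elavl4 (98.1 ± 33.7 CPM per kb), Rbfox2 (85.6 ± 12.2), Elavl3 (57.8 ± 14.1), Elavl2 (23.5 ± 7.13), Rbfox3 (21.9 ± 6.16), Rbfox1 (16.9 ± 5.65), Srrm4 (14.8 ± 5.59), Raver2 (13.4 ± 2.15), Nova2 (5.98 ± 1.41) and Nova1 (2.40 ± 1.52). Rbfox2 exceeded Elavl3, and Elavl3 exceeded Elavl2, in all 10 libraries. Most other neighbours in that order lay within each other's spread. Elavl4 was above Rbfox2 in 3 libraries of 10, all of them wild type, and Elavl2 above Rbfox3 in 8. Knockout values were at most 55.3 CPM per kb for Elavl4 and at least 67.1 for Rbfox2. In the knockout the order was led by Rbfox2 (77.6 ± 12.1 CPM per kb), Elavl3 (49.5 ± 20.5) and Elavl4 (47.0 ± 9.23), with Raver2 (4.62 ± 0.809) and Nova1 (5.16 ± 7.13) at its end. Nova1 reached 17.8 CPM per kb in knockout 16 alone, and Raver2 was above Nova1 in the other 4 knockout libraries. Without knockout 16, Nova1 stood at 1.99 ± 0.896 CPM per kb and Raver2 at 4.72 ± 0.896 (n = 4), and the means of Elavl4 (44.9 ± 9.20) and Elavl3 (44.5 ± 19.7) changed order.

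The highest and lowest values of the 10 genes fell in the same few libraries. In the wild type, 9 of the 10 were highest in library 32 or 35, with Nova1, highest in 24, as the exception. In the knockout, 6 were highest in library 16 and 4 in library 29, and 7 were lowest in 42 or 49. Profiles were compared by the root mean square difference of log2 CPM over the 10 libraries, each gene centred on its own mean, a description in which the libraries share genotype and tissue makeup. The closest pairs were Elavl3 with Rbfox3 (0.22), Elavl3 with Srrm4 (0.25) and Rbfox3 with Srrm4 (0.31). Raver2 and Elavl4 differed by 0.45, and Raver2 and Nova1 were the farthest apart, by 1.63.

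Among 15552 tested genes with a mean of at least 1 CPM, the profiles most like Raver2 were those of Dusp10 (0.24), Gng8 (0.25), Dusp14 (0.26), Nedd1 (0.29) and Mstn (0.30), against a median of 0.85 over all candidates. Dusp10 and Dusp14 encode dual-specificity phosphatases, Gng8 a G-protein gamma subunit, Nedd1 a centrosomal protein and Mstn myostatin. The edgeR test called the first 4 lower in knockout libraries. For Elavl4 they were Trim2 (0.13), a ubiquitin ligase of neurons, Mamld1, 1600029O15Rik and Armh4 (0.16 each) and Hs3st5 (0.17), a heparan sulfate sulfotransferase, against a median of 0.69. Of these, Mamld1 and Armh4 were called lower. Of all genes tested, 0.372% were called lower. Likeness to a gene that was lower in knockout libraries favours such calls, so nothing is read from them for either gene's neighbours. No gene was among the nearest 5 of both.

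Genes around these regulators were tested with edgeR on lists of 107 genes, of which 105 passed the filter on low counts. A single one, Bdnf, was called, and it was higher in knockout libraries, where 0.0944% of all genes were called higher. Groups did not overlap for 3 of the 105 (2.86%, against 4.21% of all genes): Bdnf was higher, and Srsf3 and Fxr1 were lower without passing the test. In the lists of RNA-binding proteins and Rest genes, 0 of 94 tested genes were called by edgeR. An unadjusted edgeR p below 0.05 was found for 6 of the 94, and for 2364 of all 18005 genes tested. DESeq2 called 1 of the 94, Khdrbs2, where it called 3.54% of all genes.

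**Figure D5:**
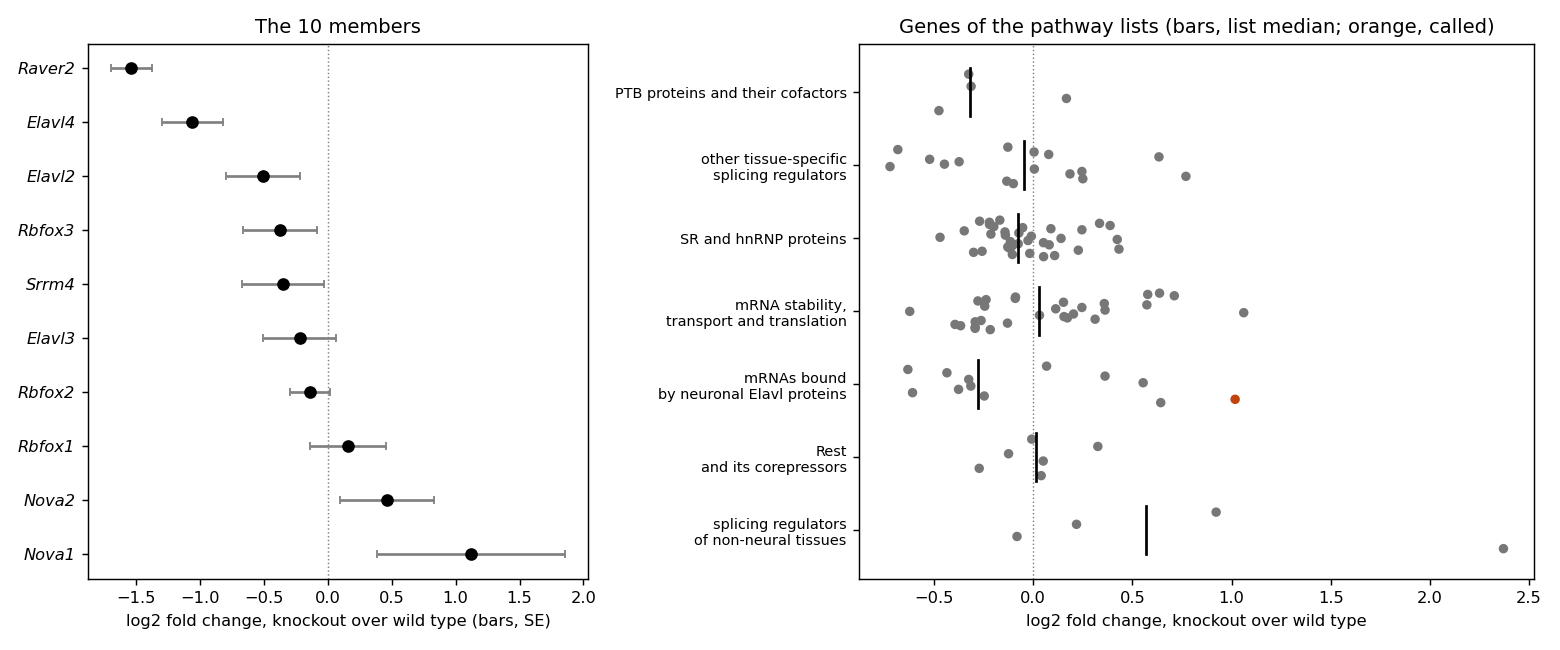
Log2 fold changes, knockout over wild type (horizontal axes), of the 10 regulators with their SE (left) and of the tested genes in 7 lists of related genes (right; bars at the list medians, orange for the 1 called gene, Bdnf). The regulators run from -1.54 (Raver2) to 1.12 (Nova1) and the list genes from -0.72 (Khdrbs2) to 2.37 (Esrp1, -1.26 without knockout 49).

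Of the 3 PTB genes, whose products are partners of raver proteins, and the PTB cofactor Matr3, 0 of 4 were called, with a median log2 fold change of -0.32. Matr3 (matrin 3, an RNA-binding protein of the nuclear matrix) stood lowest in knockout 29 (74.7 CPM), with 237 to 308 CPM elsewhere in that genotype and 281 to 337 CPM in wild-type libraries (log2 fold change -0.47, SE 0.29). Ptbp3 was at 142 ± 32.5 and 177 ± 15.5 CPM. Ptbp1, the form of non-neuronal cells, and Ptbp2, the neuronal form, lie outside the rule for named genes and were added after their values were seen. Ptbp1 ranged from 154 to 254 CPM in knockout libraries and 123 to 258 CPM in wild-type libraries, and Ptbp2 from 141 to 276 CPM and 171 to 290 CPM.

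Other tissue-specific splicing regulators (0 of 16 called, median log2 fold change -0.05) included Celf4, a neuronal RNA-binding protein, which reached 168 CPM in knockout 16 and lay between 19.1 and 58.5 CPM elsewhere. The log2 fold change of Celf4 was 0.77 with knockout 16 and 0.01 without it. Khdrbs2 (SLM1, a STAR-family splicing factor of neurons) stood at 20.1 ± 3.72 CPM in knockout libraries and 33.3 ± 7.57 CPM in wild-type libraries, a log2 fold change of -0.72 (SE 0.19, edgeR adjusted p = 0.144, DESeq2 adjusted p = 0.0437). Of the SR and hnRNP proteins, general factors of splicing, 0 of 35 were called, with a median of -0.08. Srsf3 was at 137 to 250.5 CPM in knockout libraries and 256 to 296 CPM in wild-type libraries (edgeR adjusted p = 0.389), with knockout 29 lowest, and Pcbp3 had a log2 fold change of -0.47 (SE 0.25), and -0.12 without wild-type 32 and 35.

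Of 29 genes for the stability, transport and translation of messages, 0 were called, with a median log2 fold change of 0.03. Fxr1, a relative of the fragile X protein, was at 95.5 to 107 CPM in knockout libraries and 118 to 134 CPM in wild-type libraries, a log2 fold change of -0.26 (SE 0.10, edgeR adjusted p = 0.285). Lin28a, which blocks the maturation of let-7, was at 5.35 CPM in knockout 29, 0.290 to 1.60 CPM in the other knockout libraries and 0.458 to 1.23 CPM in wild-type libraries. Its knockout 49 value is under the floor of 3 counts, and its log2 fold change was 1.06 with knockout 29 and 0.27 without it. Rest, the repressor of neuronal genes that also represses Srrm4, was at 77.5 ± 20.6 and 61.7 ± 25.1 CPM, and its list (0 of 6 called) had a median of 0.02. Hdac2, a deacetylase of its complexes, was at 281 ± 33.9 and 340 ± 32.1 CPM.

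Of 12 messages known to be bound by neuronal Elavl proteins, 1 was called higher and 0 lower, and 7 of the 12 log2 fold changes were below 0 (median -0.28). Bdnf, which encodes brain-derived neurotrophic factor, stood at 10.1, 11.02, 10.2, 10.1 and 12.1 CPM in knockout libraries and at 4.80, 4.83, 5.16, 6.21 and 5.46 CPM in wild-type libraries. Every knockout library was above every wild-type library, and the log2 fold change was 1.02 (SE 0.16, edgeR adjusted p = 0.0226). The call was lost (adjusted p = 0.0534 to 0.0977) when knockout 42, 49 or 50 or wild-type 22, 32, 35 or 45 was left out. Earlier results of these data already showed Bdnf higher, so it is no independent result.

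Splicing regulators of non-neural tissues (0 of 4 called) had a median log2 fold change of 0.57. Esrp1, an epithelial splicing factor, stood at 44.0 CPM in knockout 49, the library with the highest epithelial marker sum, at 6.30 CPM in wild-type 45 and at 0.242 to 1.57 CPM in the other 8. The log2 fold change of Esrp1 was 2.37 with knockout 49 and -1.26 without it. Knockout 16, 29 and 49 thus differed in kind. Knockout 16 was high in Nova1, Nova2, Celf4 and markers of the central nervous system. Knockout 29 was high in Rbfox3 and glial markers and low in Elavl2 and Matr3, and knockout 49 was high in Esrp1 and epithelial markers. Knockout 42 had the highest mesenchyme marker sum of all libraries, 10576 CPM. In knockout 16, 29 and 49, Raver2 (26.7, 37.0 and 29.8 CPM) and Elavl4 (298, 285 and 195 CPM) were under the lowest wild-type library. That follows from groups that do not overlap, for genes chosen with this contrast in view, so nothing is read from it.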

How the data were processed

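RNA was sequenced from 10 trigeminal ganglion samples, 5 per genotype, grouped by the genotype label. For each sample the authors deposited unnormalized read counts for 55414 gene IDs. The submitters' processing notes name featureCounts 1.5.0-p1, STAR 2.7.10a, bcl2fastq 2.20.0.422 and 2 builds without a role, mm10 and GRCm39. Annotation, strand setting and handling of multi-mapping reads were not given in the sources used here, so reads of overlapping genes may be lost or shared. Symbols matched 52081 IDs.

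Genes were kept with filterByExpr (minimum count 10), scaled with TMM and tested with edgeR 4.0.16 in R 4.3.3 (quasi-likelihood test, limma 3.58.1, Benjamini-Hochberg over 18005 genes, threshold 0.05). The script was checked on simulated counts. Alternatives were DESeq2 1.42.0, RLE factors, no filter, left-out libraries and marker levels as covariates. Log2 ratios used a prior count of 2. CPM per kb used exon lengths of GENCODE M21 (GRCm38), which need not be the authors' annotation; chromosomes come from the same table. Libraries of a group were compared for duplicates (chi-square per gene at least 9.88 in 20 pairs), and all were kept. A floor of 3 counts is 0.869 CPM in knockout 49 and at most 0.236 CPM elsewhere.

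The members and lists were chosen with earlier results of these data known. The text names the 10 members and Prdm12, every called gene of the pathway lists, each list's gene of largest absolute log2 fold change and of smallest p, and the 5 profiles most like Raver2 and Elavl4. The planned ratio of Raver2 to Raver1 was not computed because Raver1 was not measured.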

Additional observations from a re-analysis of the deposited data

Results flagged for a closer look

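Each value here lay far from the other 4 of its group: its gap to the nearest of them, as a share of the range, exceeded Dixon's 95% critical value of 0.71, which chance exceeds in about 1 group in 20. Among 20 groups of CPM values of the members, 2 held such a value. Nova1 stood at 156 CPM in knockout 16, where the next knockout library had 27.6 CPM, and Rbfox3 at 175 CPM in knockout 29, where the next had 94.01 CPM.

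Among 32 groups of ratios within a library, 5 held such a value. Rbfox1 relative to Rbfox2 stood at -4.13 log2 units in wild-type 22, with the next at -3.23. Relative to the neuron markers, Elavl2 stood at -3.39 and Elavl4 at -1.51 in knockout 29, with the next at -2.08 and -1.09. In wild-type 24 Elavl4 stood at -0.83 and Srrm4 at -3.19 relative to the same markers, with the next at -0.43 and -2.44.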

How the results depend on the processing

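No paired analysis was possible because the genotypes share no replicate numbers. As a description, the log2 fold change over 18 alternatives ran from -1.68 to -1.38 for Raver2 and from -1.15 to -0.59 for Elavl4. The smallest Elavl4 change, -0.59, came without wild-type 32 and 35. The log2 fold change of Nova1 was -0.27 without knockout 16. At least 1 alternative changed the sign of the log2 fold change of Elavl3, Nova1, Rbfox1, Rbfox2 and Srrm4; RLE factors in place of TMM kept the sign of all 10 and moved the median over all genes from -0.03 to 0.02.

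Genes called higher numbered 17, and 399 with DESeq2, 55 with no filter, 0 without wild-type 32 and 35, 6 without knockout 29 and 49, 65, 34 and 9 with neuron, glia and central nervous system marker levels as covariates, and 2 to 35 with 1 library left out. Genes called lower numbered 67, and in the same order 238, 102, 19 (wild-type 32 and 35 left out), 118 (glia) and 41 (central nervous system), with 27 to 88 when 1 library was left out. Of the related genes, 1 was called higher (Bdnf), 2 (Ache and Bdnf) with the neuron marker level, 0 with no filter, without wild-type 32 and 35 or without knockout 29 and 49, and 0 to 1 with 1 library left out. Lower calls among them numbered 0, and 1 with DESeq2 (Khdrbs2). Prdm12 itself lost its call without knockout 49 (edgeR adjusted p = 0.0561), knockout 50 (0.0616) or wild-type 32 and 35 (0.110). The central nervous system covariate was chosen after seeing the data. Depth limits low genes most in knockout 49.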
